A study of Mus musculus with 19 samples.

Results

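Transcripts of 10 genes known from Müller glia and astrocytes were followed in microglia sorted from the mouse retina: Glul, Rlbp1, Gfap, Aqp4, Vim, Slc1a3, Clu, Dkk3, Sox9 and Gpr37. They were chosen by name, and all 10 were among the 27299 genes of the deposited table. Both groups were C57BL/6J mice of 8 weeks by the labels, whereas the methods of the study name Cx3cr1 GFP/+ mice on that background, in which 1 copy of Cx3cr1 is replaced by a fluorescent reporter. The laser group (6 samples) had received argon laser burns that induce choroidal neovascularization (CNV), the growth of vessels from the choroid into the retina, and was analyzed on day 3, and the control group (6 samples) had not been lasered. The cells were sorted by flow cytometry as positive for CD45, CD11b and CX3CR1 and negative for Ly6C and Ly6G, with CD45 low in the methods. The gate included no marker of Müller glia or astrocytes, and the libraries were amplified from picogram amounts of total RNA. The labels do not say that the samples of a group came from separate mice, so the p-values measure the spread between these samples.

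Müller glia are the radial glia of the retina and span its whole depth, while astrocytes lie among the nerve fibers and vessels of its inner surface. Both take up glutamate and potassium, move water, and turn reactive after injury, when they raise intermediate filament proteins such as GFAP and vimentin. Some of the 10 genes are not restricted to glia: vimentin and glutamine synthetase (Glul) are also known from macrophages.

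The samples held between 10963178 and 29523018 reads on genes. All laser samples (23532260 to 29523018) were deeper than all control samples (10963178 to 22335233), and control 6 was the shallowest. Values are normalized counts, that is reads divided by the size factor of the sample, and 1 read was worth 0.739 to 1.99 normalized counts. A gene was taken as carried by a sample with at least 3 reads. Genes were called DEG where limma, fitted to log2(normalized counts + 1) across the whole table, gave a log2 fold change beyond 1.5 in either direction with a Benjamini-Hochberg adjusted p under 0.05. In genes with samples at 0, this log2 fold change can lie above the log2 ratio of the means, as in Clu, Gfap and Aqp4, or below it, as in Sox9. The summed level of 10 microglia genes was 1195100 to 1353810 normalized counts in control and 669718 to 994225 in laser samples. All 10 were carried by all 12 samples.

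The loci are given in GRCm38 by the Gencode annotation. Glul lies at chr1:153899944-153909723 on the plus strand, and 209 bases of its exons are shared with Teddm2 and Mir8114, so a small share of its reads could belong to these. Vim lies at chr2:13573927-13582826 (plus), Rlbp1 at chr7:79374870-79387048 (minus), Gfap at chr11:102887336-102900912 (minus) and Slc1a3 at chr15:8634124-8710764 (minus). Clu lies at chr14:65968483-65981547 (plus), Dkk3 at chr7:112116017-112159057 (minus), Sox9 at chr11:112782224-112787760 (plus) and Gpr37 at chr6:25665878-25690729 (minus). The exons of these genes and of Aqp4 overlapped no exon of another gene.

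RefSeq promoters on GRCm38.p6 matched 6 of the 10 genes. The 250 bases before the start were searched on both strands for the TATA box (TATAAA), the CCAAT box, the GC box (GGGCGG) and the AP-1 motif (TGANTCA), and matches are in capitals. Gfap and Slc1a3 are shown whole because one was carried by most laser samples and few control samples and the other was lower after laser treatment, and of Vim, the gene with the smallest adjusted p of the 10, the stretch around the TATA box is shown.
Vim, chr2:13574267-13574296, plus strand: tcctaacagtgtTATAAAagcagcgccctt
Gfap, chr11:102897201-102897450, minus strand: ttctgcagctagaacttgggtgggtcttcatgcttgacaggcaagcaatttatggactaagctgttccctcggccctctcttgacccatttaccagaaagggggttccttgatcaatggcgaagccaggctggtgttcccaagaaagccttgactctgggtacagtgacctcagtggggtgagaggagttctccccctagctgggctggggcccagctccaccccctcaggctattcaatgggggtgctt
Slc1a3, chr15:8710808-8711057, minus strand: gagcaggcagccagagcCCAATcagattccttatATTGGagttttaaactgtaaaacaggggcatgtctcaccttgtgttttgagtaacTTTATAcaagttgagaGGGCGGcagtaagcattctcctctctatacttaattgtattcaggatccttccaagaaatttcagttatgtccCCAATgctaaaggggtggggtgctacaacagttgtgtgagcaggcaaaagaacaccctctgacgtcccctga
The starts are those of RefSeq. The printed stretches of Vim and Gfap lie inside the Gencode loci given above, whereas that of Slc1a3 lies before its locus. The TATA box of Vim began 32 bases before the RefSeq start, and its 250 bases also held 2 CCAAT boxes. Slc1a3 had 1 TATA box, 161 bases before the start, with 3 CCAAT boxes and 1 GC box. None of the motifs lay in the 250 bases of Gfap, and the AP-1 motif lay in none of these 3 promoters. Among 32851 promoters of the same length, 12.4% held the TATA box, 33.8% the CCAAT box, 32.7% the GC box and 6.75% the AP-1 motif. These matches describe letters and not bound sites.

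The 10 genes fell into a part that every sample carried and a part that came and went between samples. Glul, Slc1a3, Vim and Rlbp1 were carried by all 12 samples. Aqp4, Clu and Dkk3 were carried by 6 of 6 laser samples and by 2 of 6 control samples each, and Gfap by 5 of 6 laser samples and 1 of 6 control samples. Gpr37 was carried by 3 laser samples and Sox9 by 1, and neither by a control sample. In total, 31 of 60 pairs of gene and control sample and 51 of 60 pairs of gene and laser sample had at least 3 reads. After all samples were thinned to the depth of control 6, the counts were 30 and 49. With at least 1 read they were 33 and 55. Detection over the whole table differed too. Of all 27299 genes, 15076 to 17224 had at least 1 read in a control sample and 18276 to 19116 in a laser sample. The share of all genes with at least 3 reads, or after thinning, is not given here. Every laser sample carried 8 or 9 of the 10 glial genes, and the control samples carried 4 to 7, with the most in control 4.

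**Figure D1:**
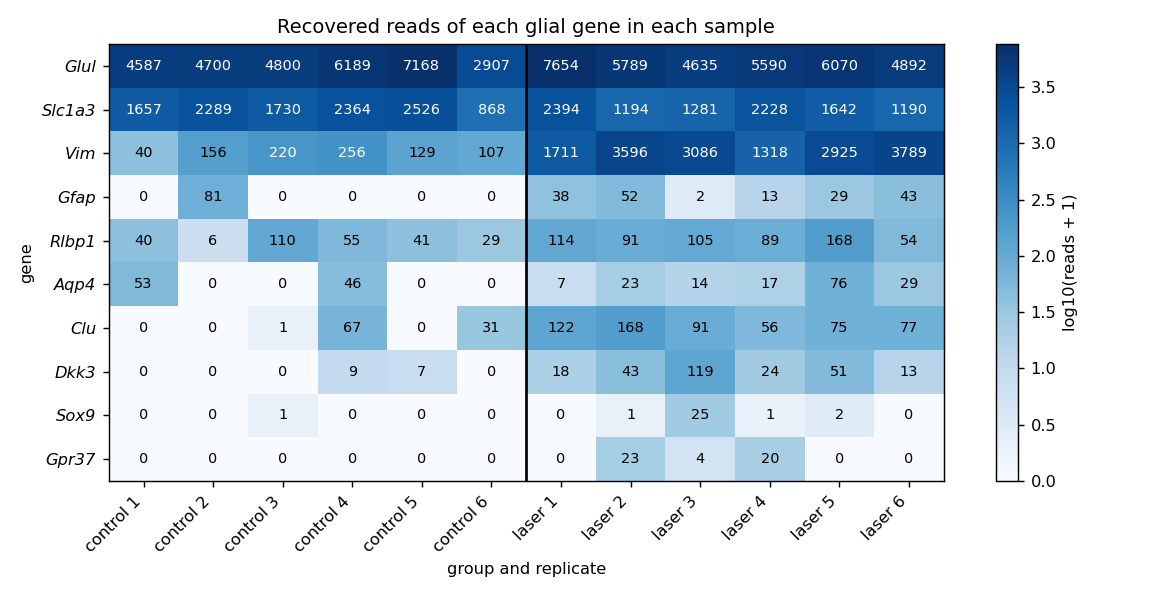
Reads of each glial gene (rows) in each of the 12 samples (columns), with control samples left of the black line and laser samples right of it. The colour is log10(reads + 1) and the number is the read count. Glul, Slc1a3, Vim and Rlbp1 have reads in all samples, whereas Gfap has 81 reads in control 2 and 0 in the other 5 control samples.

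By the thresholds for DEG, 3 of the 10 genes were increased after laser treatment (Vim, Clu and Dkk3), against 3.91% of all genes. None was decreased by limma, against 1.07% of all genes, while 2 (Glul and Slc1a3) were lower at an unadjusted p under 0.05. Neither edgeR nor DESeq2 called one of the 10 decreased. By adjusted p alone, 3 genes were higher in laser samples (8.29% of all genes) and 1, Slc1a3, was lower (4.57%). In Vim and Dkk3, every laser sample was above every control sample, which held for 4.64% of all genes. The median log2 fold change of the 10 genes was 2.05, or 1.71 with Gpr37 set to the bound that 0 reads in control allows, compared with 0.15 over all genes (0 with genes of 0 control reads at their bound). With edgeR on the recovered reads only Vim was an increased DEG, and with DESeq2 Vim and Dkk3 were. In sorted bulk RNA, more cells of a type and more RNA per cell cannot be told apart.

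**Figure D2:**
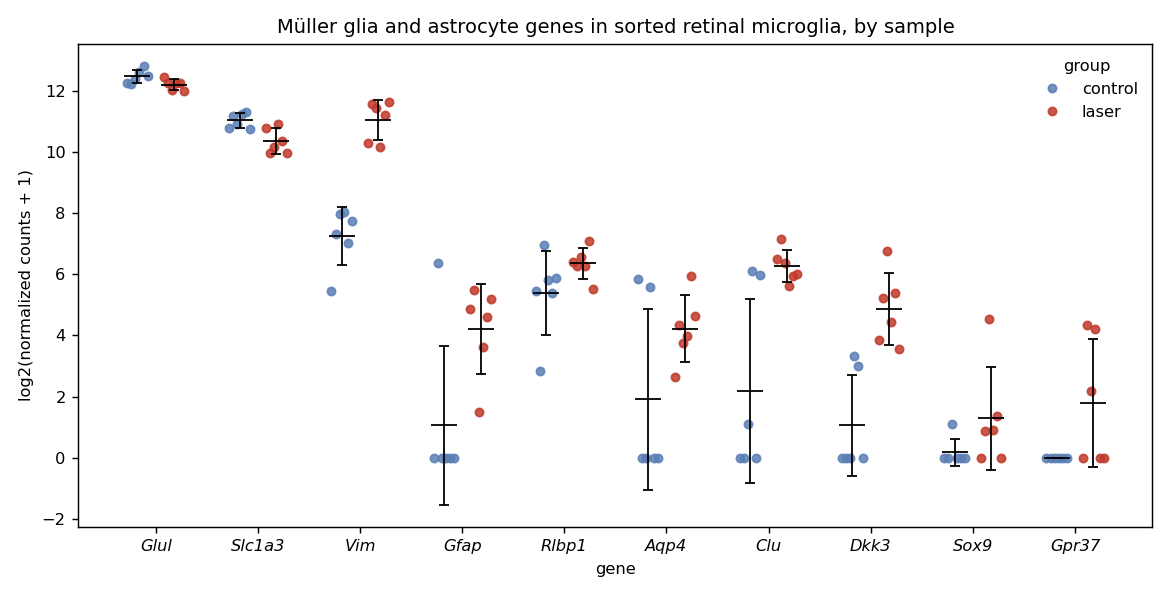
Normalized counts of the glial genes in control (blue) and laser (red) samples on a log2(value + 1) axis. Points are samples, and the black lines are the mean and SD of 6 samples on this axis. Vim and Dkk3 show no overlap between the groups, and Glul and Slc1a3 lie slightly lower in laser samples.

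**Figure D3:**
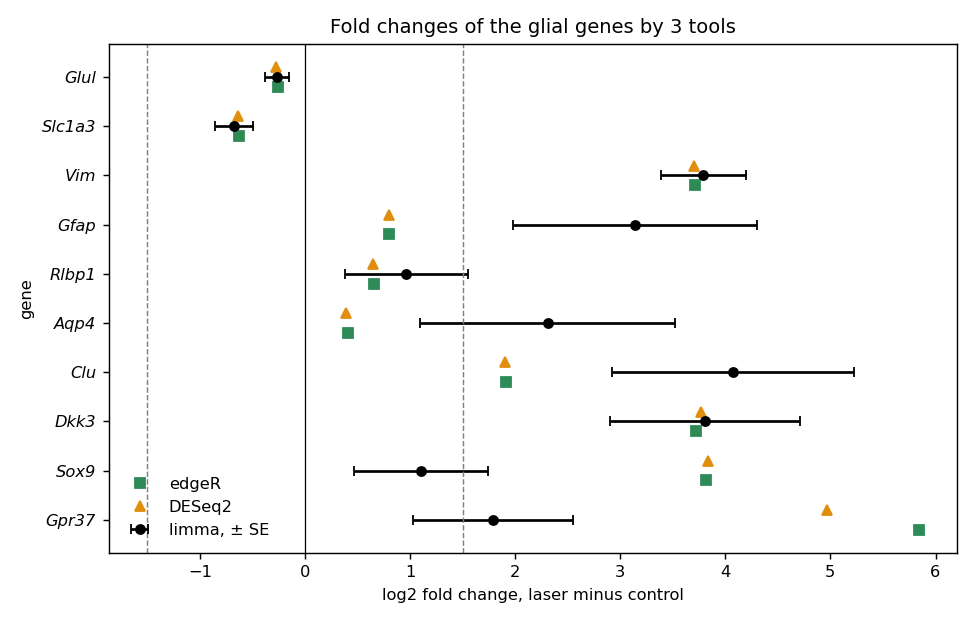
Log2 fold changes (laser minus control) of the glial genes by limma with SE (black), edgeR (green) and DESeq2 (orange), with dashed lines at the DEG threshold of 1.5. The tools lie close together for Glul, Slc1a3, Vim and Dkk3 and far apart for Gfap, Aqp4 and Clu, while Sox9 and Gpr37 have almost no control reads, so their fold changes depend on the offset of each tool.

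Vimentin is the intermediate filament protein of Müller glia and astrocytes and of many mesenchymal cells and macrophages. Vim had 42.9, 158, 248, 260, 129 and 212 normalized counts in control 1 to 6. In laser 1 to 6 it had 1264, 3007, 2761, 1141, 2343 and 3148. The lowest laser sample was thus far above the highest control sample. The mean rose from 175 ± 82.1 to 2277 ± 877 (SD, n = 6 each), a 13.0-fold difference and a log2 fold change of 3.79 (SE 0.41, limma adjusted p = 4.09e-05). The two-sided exact permutation test gave p = 0.00216, the smallest that 6 against 6 samples allow, and Vim remained an increased DEG with any 1 sample left out (log2 fold change 3.43 to 3.97).

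GFAP is the intermediate filament protein of astrocytes, which Müller glia raise when they become reactive. Gfap had 82.0 normalized counts in control 2 and 0 in each of the other 5 control samples. The laser samples, in order, had 28.1, 43.5, 1.79, 11.3, 23.2 and 35.7 normalized counts. The single control sample with reads was thus higher than every laser sample. The means were 13.7 ± 33.5 in control and 23.9 ± 15.4 in laser (SD, n = 6 each), and the log2 fold change of 3.14 (SE 1.16) did not pass (limma adjusted p = 0.0946). Without control 2, Gfap was an increased DEG (log2 fold change 4.20, adjusted p = 0.00368) and at least 4.02-fold higher than 3 reads in the shallowest control sample. The count tools edgeR and DESeq2 gave a log2 fold change of 0.80 each (adjusted p = 0.726 and 0.782).

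Of 9 intermediate filament genes in the table, Vim and Nes were increased DEG and none was decreased by limma, edgeR or DESeq2, with none lower at an unadjusted p under 0.05. Nestin (Nes), a filament protein of neural progenitors and reactive glia, rose from 449 ± 312 to 1831 ± 701 normalized counts (log2 fold change 2.26, adjusted p = 0.00213), and all laser samples were above all control samples. The neurofilament genes Nefl (88.9 ± 32.6 in control and 139 ± 52.2 in laser, adjusted p = 0.277) and Nefm (36.6 ± 39.7 and 57.1 ± 49.7, adjusted p = 0.513), which belong to neurons, did not pass the test.

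Glutamine synthetase, encoded by Glul, turns glutamate into glutamine and is the classical marker of Müller glia. It was by far the most abundant of the 10 genes. Glul had 4924, 4758, 5405, 6281, 7196 and 5773 normalized counts in control 1 to 6. In laser 1 to 6 it had 5655, 4841, 4147, 4838, 4862 and 4064. The groups overlapped, with laser 1, 2, 4 and 5 inside the range of the control samples and laser 3 and 6 below it. The means were 5723 ± 911 and 4734 ± 580 (SD, n = 6 each), and the log2 fold change of -0.27 (SE 0.11) did not pass (limma adjusted p = 0.148), although the two-sided exact permutation test of this gene alone gave p = 0.0498.

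Slc1a3 encodes GLAST, the glutamate transporter of Müller glia and astrocytes. It had 1779, 2317, 1948, 2399, 2536 and 1724 normalized counts in control 1 to 6. The values of laser 1 to 6 were 1769, 998, 1146, 1928, 1315 and 989. Laser 1 and laser 4 lay within the control range and the other 4 laser samples below it. The mean fell from 2117 ± 344 to 1358 ± 402 (SD, n = 6 each), with a log2 fold change of -0.67 (SE 0.18, limma adjusted p = 0.0208), which is below the fold threshold for a DEG. Its adjusted p was 0.0581 in limma without a trend in the variance and 0.0577 to 0.0722 without control 2, 4 or 5 or without laser 2, 3, 5 or 6, and the log2 fold change stayed between -0.79 and -0.59.

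In the list of 10 genes of glutamate uptake and the glutamine cycle, the general genes were close between the groups: Glud1, which encodes glutamate dehydrogenase, had 3967 ± 970 and 4548 ± 244 normalized counts (adjusted p = 0.355), and the glutamine transporter Slc38a2 3567 ± 878 and 3818 ± 360 (adjusted p = 0.604). The low genes Slc1a2 and Slc38a3 of the list were increased DEG. Slc1a2, the glutamate transporter GLT-1 of astrocytes, rose from 0.331 ± 0.811 to 23.9 ± 25.2 (log2 fold change 3.66, adjusted p = 0.00594) and was carried by no control sample and by all laser samples. Slc38a3, the glutamine transporter of glia, rose from 0.188 ± 0.46 to 24.7 ± 20.6 (log2 fold change 3.42, adjusted p = 0.0313) and was carried by 4 laser samples. The call of Slc38a3 was lost without control 1, 2, 4, 5 or 6 and without laser 3, 4, 5 or 6, whereas that of Slc1a2 held with any 1 sample left out. Neither was called with a pseudocount of 10 or with the filter of 10 reads in 6 samples. Slc1a3 and these low genes therefore went in opposite directions between the groups.

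Rlbp1 encodes the retinaldehyde-binding protein CRALBP of Müller glia and the retinal pigment epithelium. It had 42.9, 6.07, 124, 55.8, 41.2 and 57.6 normalized counts in control 1 to 6. Laser 1 to 6 had 84.2, 76.1, 94.0, 77.0, 135 and 44.9. Its lowest value was in control 2, the sample with the most Gfap, and its highest control value in control 3, which had no Gfap read. The means were 54.6 ± 38.7 and 85.1 ± 29.3 (SD, n = 6 each) and the log2 fold change of 0.97 (SE 0.59) did not pass (limma adjusted p = 0.344). Among other genes of retinoid handling, Rdh11, a retinol dehydrogenase, had 1244 ± 473 and 922 ± 121 normalized counts (adjusted p = 0.265), and the pigment epithelium genes Rpe65 and Rgr reached 3 reads in 1 laser sample each and in no control sample.

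Aquaporin-4 is the water channel of Müller glial and astrocyte endfeet. Aqp4 had 56.9 normalized counts in control 1, 46.7 in control 4 and 0 in the other 4 control samples. Laser 1 to 6 had 5.17, 19.2, 12.5, 14.7, 60.9 and 24.1. All laser samples thus carried it, most at a level below that of the 2 control samples that did. The means were 17.3 ± 26.9 and 22.8 ± 19.7 (SD, n = 6 each), the log2 fold change was 2.31 (SE 1.21, limma adjusted p = 0.261), and without laser 5 the control mean was 1.14-fold higher than the laser mean of 15.1 ± 7.13. The control samples with Aqp4 were not the one with Gfap. Of 8 genes of the anchoring complex of this channel with its potassium channel partner, limma and edgeR called none a DEG (2 were higher and 1 lower at an unadjusted p under 0.05), and DESeq2 called 1, Dtna, decreased. Dystroglycan (Dag1), which anchors the complex to the basement membrane, rose from 1778 ± 506 to 2558 ± 336 by adjusted p (log2 fold change 0.56, adjusted p = 0.0357). The potassium channel gene Kcnj10 had 88.1 ± 64.1 and 102 ± 66.6 normalized counts (adjusted p = 0.608).

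Clusterin, a secreted chaperone that binds lipids, is abundant in astrocytes and Müller glia. Clu had 68.0 normalized counts in control 4, 61.6 in control 6, 1.13 in control 3 and 0 in the other 3 control samples. In laser 1 to 6 it had 90.1, 140, 81.4, 48.5, 60.1 and 64.0. All laser samples carried it, and laser 4, laser 5 and laser 6 lay below the highest control sample. The mean rose from 21.8 ± 33.4 to 80.8 ± 32.9 (SD, n = 6 each), a 3.71-fold difference, with a log2 fold change of 4.07 (SE 1.15, limma adjusted p = 0.0293). The count tools did not call it, as edgeR gave a log2 fold change of 1.92 (adjusted p = 0.279) and DESeq2 1.90 (adjusted p = 0.256). It was lost in 10 of the 12 fits that left out 1 sample (adjusted p = 0.0646 to 0.0928) and held without control 4 or control 6. Of 5 genes for clusterin and its receptors, Clu was the single DEG by limma. Trem2, a lipid receptor of microglia, fell from 10109 ± 998 to 6051 ± 1156 (log2 fold change -0.76, adjusted p = 0.000741), and Lrp8, the ApoE receptor of neurons, had 12.1 ± 18.1 and 64.6 ± 44.3 (adjusted p = 0.0539).

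Dickkopf-3 is a secreted glycoprotein of the Dickkopf family, whose founding members inhibit Wnt signaling, and it is found in Müller glia. Dkk3 had 9.13 normalized counts in control 4, 7.03 in control 5 and 0 in the other 4 control samples. The values of laser 1 to 6 were 13.3, 36.0, 106, 20.8, 40.8 and 10.8. Every laser sample was above every control sample. The mean rose from 2.69 ± 4.23 to 38.0 ± 35.6 (SD, n = 6 each), with a log2 fold change of 3.81 (SE 0.90, limma adjusted p = 0.0108), and the two-sided exact permutation test gave p = 0.00216, again the smallest possible. The ratio of the means was 14.1, or 9.03 without laser 3, and rested on 16 reads in all control samples together against 268 in the laser samples. It was an increased DEG with any 1 sample left out and by DESeq2 (adjusted p = 0.00365), but not by edgeR (log2 fold change 3.72, adjusted p = 0.0598). The other 3 genes of Wnt antagonists in the table, Dkk1, Dkk2 and Dkkl1, had means of at most 3.76 normalized counts in either group.

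Sox9 is a transcription factor of Müller glia and astrocytes, and its transcripts were close to the limit of detection. There was 1 read in control 3 and none in the other control samples, and the laser samples had 29 reads in all, 25 of them in laser 3 (22.4 normalized counts). Without laser 3, the laser mean was 0.661 ± 0.677 normalized counts (n = 5). The ratio of reads per depth was 21.1 (exact 95% interval 3.50 to 862, which covers counting error only), and the difference did not pass (limma adjusted p = 0.318). Of 11 glial transcription factors in the table, limma called 1, Lhx2, an increased DEG (1.05 ± 1.78 to 5.88 ± 2.24, adjusted p = 0.0308), and edgeR and DESeq2 called none. Nfia, a factor of the nuclear factor I family that acts in gliogenesis, was the most abundant and fell by 0.50 on the log2 scale, from 1194 ± 222 to 838 ± 101 (adjusted p = 0.0328). Sox2 and Sox10 had means of at most 0.433 normalized counts in either group.

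GPR37 is a receptor of glial cells that has been linked to prosaposin. Gpr37 had 0 reads in all control samples, and in laser samples it had 23 reads in laser 2, 4 in laser 3, 20 in laser 4 and 0 in the other 3. The laser mean of 6.69 ± 9.10 normalized counts was at least 1.12-fold higher than 3 reads in the shallowest control sample, and the difference did not pass (limma adjusted p = 0.151). Psap, the gene of prosaposin, had 94942 ± 9539 and 112917 ± 18339 normalized counts (adjusted p = 0.136). Limma, edgeR and DESeq2 called neither gene a DEG, and both were higher at an unadjusted p under 0.05.

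To compare levels between genes, normalized counts were divided by the exon length in kb. In control samples, Glul had 1722 ± 274 normalized counts per kb, Slc1a3 248 ± 40.3, Vim 36.9 ± 17.3 and Rlbp1 18.5 ± 13.1. Below these came Clu with 6.34 per kb, Gfap with 3.24, Aqp4 with 2.77, Dkk3 with 0.802, Sox9 with 0.0454 and Gpr37 with 0. Glul was above Slc1a3 and Slc1a3 above Vim in every control sample, while the ranges of all later neighbours in this order overlapped. In laser samples Vim (480 ± 185 per kb) moved to the second place between Glul (1425 ± 174) and Slc1a3 (159 ± 47.0), and these 3 were separated from each other and from Rlbp1 (28.8 ± 9.92). Clu had 23.5 per kb there, Dkk3 11.3, Gfap 5.67, Aqp4 3.65, Gpr37 1.10 and Sox9 1.03, with overlapping ranges. For scale, the microglia genes P2ry12 and Csf1r had 73799 and 59894 normalized counts per kb in control and 24129 and 52561 in laser.

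**Figure D4:**
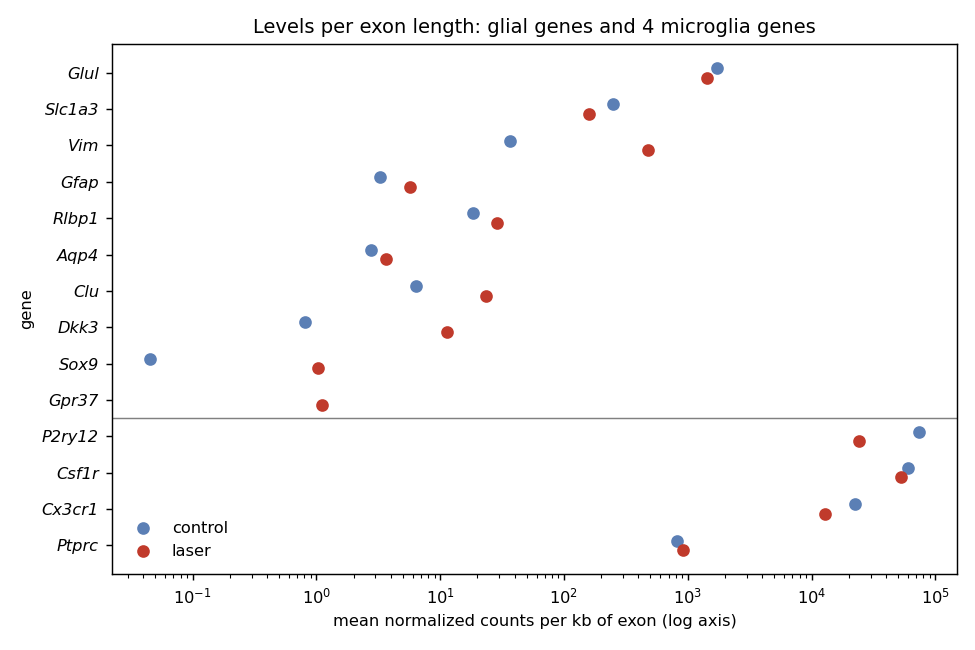
Mean normalized counts per kb of exon (log axis) of the glial genes and, under the grey line, 4 microglia genes, in control (blue) and laser (red) samples. Glul is above Ptprc per kb, the 7 genes other than Glul, Slc1a3 and Vim stay at or below 28.8 per kb, and Gpr37 has no control point because it was 0.

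The proportions of the abundant genes to Rlbp1 varied between samples. The ratio of Glul to Rlbp1 per kb ranged from 38.8 (control 3) to 696 (control 2) in control samples and from 32.1 to 80.5 in laser samples, with medians of 101 and 56.2. That of Slc1a3 to Rlbp1 was 5.44 to 132 in control (median 14.6) and 3.38 to 8.66 in laser samples (median 5.90). That of Vim to Rlbp1 was 0.623 to 16.2 and 9.22 to 43.7, with medians of 2.13 and 14.6. The highest control ratio of all 3 genes was in control 2, which had only 6 reads of Rlbp1.

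The 14 other genes of the Müller glia and astrocyte list were read in the same way. Of these, 6 were increased DEG, none was decreased by limma, edgeR or DESeq2 (none was lower at an unadjusted p under 0.05), and 13 had a positive log2 fold change with a median of 1.38 (0.98 with genes of 0 control reads at their bound). Besides Nes and Slc1a2, these were Aldh1l1, a folate enzyme used as an astrocyte marker (14.3 ± 35.1 to 91.9 ± 62.5, adjusted p = 0.00599), Crym, a thyroid hormone-binding protein (10.9 ± 26.1 to 59.9 ± 36.7, adjusted p = 0.00958), the calcium-binding protein gene S100b (1.68 ± 3.19 to 32.9 ± 40.1, adjusted p = 0.0203) and Lhx2. Aldh1l1, Crym, S100b and Lhx2 were each carried by 1 control sample and by all 6 laser samples. With edgeR and with DESeq2 the count was 3 (Slc1a2, S100b and Nes). Of the 13 genes with a positive log2 fold change, Abca8a and Hes1 had lower means in laser than in control samples. Abca8a had a mean of 47.7 normalized counts in control and 10.4 in laser, and was carried by 1 control sample and 2 laser samples. Hes1 had means of 69.7 in control and 64.3 in laser. Aldoc, an aldolase of astrocytes, had 98.8 ± 18.1 and 116 ± 34.9 normalized counts (adjusted p = 0.638), and Sox2, Pax2 and Gja1, which define neural stem cells and Müller glia, optic nerve astrocytes and astrocyte gap junctions, had means of at most 2.98 in either group.

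The 7 glial genes other than Glul, Slc1a3 and Vim summed to 99.8, 88.1, 126, 180, 48.2 and 119 normalized counts in control 1 to 6. They summed to 221, 335, 322, 190, 321 and 179 in laser 1 to 6. Laser 6 thus lay just below control 4, and the other laser samples above all control samples. The 14 other glial genes summed to 347 to 1564 in control, with the highest in control 3, and to 1560 to 3738 in laser samples, with the highest in laser 3. Nes made up the largest part of these sums by mean (449 ± 312 in control and 1831 ± 701 in laser samples).

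**Figure D5:**
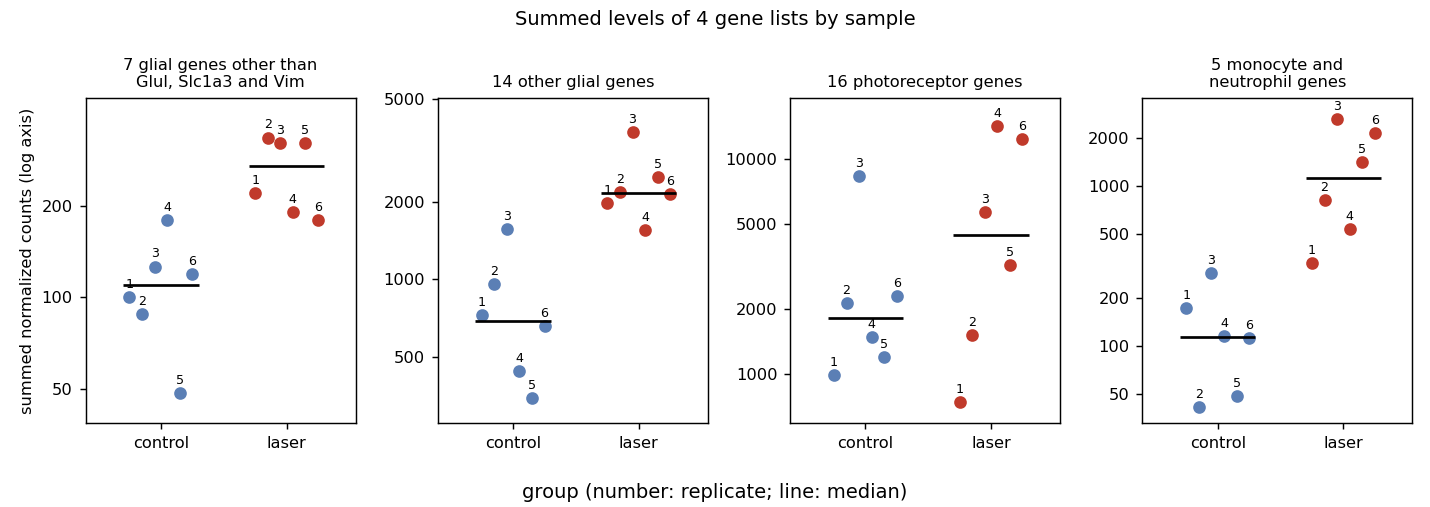
Summed normalized counts (log axis, each panel with its own range) of 4 gene lists in the control (blue) and laser (red) samples, with the replicate number at each point and a line at the median. The glial sums and the monocyte and neutrophil sum are higher in laser samples, with 1 pair of samples out of order in each glial panel. By mean, Nes gives the largest part of the sum of the 14 other glial genes, and Plac8 and Ccr2 give most of the monocyte and neutrophil sum. The photoreceptor sums overlap widely and are highest in laser 4 and laser 6.

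Markers of other cells moved in these samples too. Of 16 photoreceptor genes, limma called none a DEG and 1, Sag, was higher at an unadjusted p under 0.05 (180 ± 128 to 815 ± 722, adjusted p = 0.0608), which edgeR and DESeq2 called increased. All 16 had a positive log2 fold change, with a median of 1.28 (1.16 with genes of 0 control reads at their bound), and 8 were carried by all samples. Crx had a lower mean in laser (77.6 ± 48.8) than in control samples (91.8 ± 109). Prph2, a structural protein of the outer segment discs, had 221 ± 206 and 517 ± 446 normalized counts (adjusted p = 0.379). The photoreceptor sum was 983 to 8329 in control and 737 to 14262 in laser samples. Laser 1, the sample with the lowest photoreceptor sum of all 12, carried 8 of the 10 glial genes.

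The 5 monocyte and neutrophil genes in the table summed to 41.5 to 288 in control and 333 to 2634 in laser samples, with the highest in laser 3 and laser 6. By mean, Plac8 and Ccr2 made up most of these sums. Plac8 (89.9 ± 115 to 639 ± 441, adjusted p = 0.0115), the chemokine receptor gene Ccr2 (34.2 ± 46.6 to 664 ± 543, adjusted p = 0.00455) and Ly6c2, which had 0 reads in control and 12.9 ± 8.26 in laser (adjusted p = 0.00134), were increased DEG by limma, edgeR and DESeq2, although Ly6C-positive cells were gated out. Plac8 was not called without control 2 or without laser 2, 3, 5 or 6. Ly6c2 was not called with a pseudocount of 10 or with the filter of 10 reads in 6 samples. The other genes of the list did not pass. S100a8 had 6.06 ± 9.75 in control and 0.503 ± 0.898 in laser samples (limma adjusted p = 0.523), and S100a9 had 1 read, in a laser sample. Monocytes carry vimentin, and the part of these cells in the rise of Vim was not tested.

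The 7 bipolar cell genes summed to 376 to 941 in control and 211 to 423 in laser samples. None was a DEG by limma, edgeR or DESeq2, and 1, Prkca, was lower at an unadjusted p under 0.05, and also by adjusted p (704 ± 219 to 253 ± 89.4, adjusted p = 0.00202). The 10 amacrine and ganglion cell genes summed to 733 to 1493 and 643 to 1257, and Thy1, with 0 reads in control and 6.36 ± 4.65 in laser, was an increased DEG (adjusted p = 0.00590). Thy1 was carried by 4 laser samples. It was not called with a pseudocount of 10 or with the filter of 10 reads in 6 samples. The 8 pigment epithelium and melanocyte genes summed to 44.0 to 330 and 92.2 to 317, with none called by the 3 tools and 1 higher at an unadjusted p under 0.05 (Mlana, adjusted p = 0.0540). The 6 endothelial genes summed to 500 to 990 and 445 to 962, of which limma and edgeR called none a DEG and DESeq2 called 1, Pecam1, decreased. By adjusted p of limma Kdr was higher (315 ± 159 to 595 ± 175, adjusted p = 0.0452) and Pecam1 lower (392 ± 232 to 138 ± 69.8, adjusted p = 0.0236). The 5 pericyte and fibroblast genes summed to at most 20.1 in any sample, with none called by any of the 3 tools or at an unadjusted p under 0.05. Tek and Esam of the endothelium and Lum of fibroblasts were at or near 0, while Tie1 had 13.3 ± 30.5 in control, where 2 samples carried it, and 0.508 ± 0.901 in laser. The part of any of these cells in the glial values was not tested.

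Of 10 microglia genes, P2ry12, a purinergic receptor of resting microglia, was the only decreased DEG (187891 ± 21856 to 61433 ± 16223, adjusted p = 1.01e-05), and by adjusted p 6 genes were lower and 1, Itgam, higher. Values are relative to all reads of a sample. Over genes with a mean of at least 50 normalized counts the median log2 fold change was 0.08, or 0.10 after thinning.

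For the 5 glial genes with a mean of at least 50 normalized counts, the genes that varied most like them were sought among 10756 genes after the group means had been taken out, so that r describes the variation over 12 samples within groups. Glul was most like Fcgr3 (r = 0.93), Ywhah (0.91) and Rnf167 (0.90), of which Fcgr3 encodes an immunoglobulin receptor of myeloid cells. Slc1a3 was most like Etv5 (0.91), Serpine2 (0.90) and Slc33a1 (0.90), and Vim most like Spcs1 (0.93), Rnf181 (0.93) and Nemp1 (0.89). Rlbp1 was most like the antisense gene Gm16059 (0.91), Zfp53 (0.91) and Zwint (0.90), and Clu most like Wdr90 (0.96), Mkks (0.93) and Phkg2 (0.91). None of the 5 had another of the 10 genes among its 3 closest. The best of so many genes over so few samples is high by selection, so these values are a description.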

How the data were processed

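Retinal microglia of 12 samples (6 control, 6 laser) were measured by RNA-seq. Per the labels and methods, the authors mapped reads with STAR 2.7.2b to GRCm38.p6, merged 2 files per sample, counted reads per gene with featureCounts 1.6.4 and divided them by DESeq2 1.22.2 size factors. These normalized counts are the deposited signal, while the deposited fold changes and p-values were not used. The labels hold 19 entries, and 7 samples listed in 2 parts were counted once.

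Every value was a whole multiple of 1 read (100% of values within 0.001 read), so reads were recovered for count tests, for which the reads per sample are given with the results. PCR copies carry no molecular identifiers, so floors and intervals cover counting error only. The groups were compared with limma 3.58.1 (trended variance, pseudocount 1, no further filter) in R 4.3.3, with edgeR 4.0.16, DESeq2 1.42.0, other scalings, a filter, other pseudocounts, thinning, a replicate block and leaving out each sample as alternatives. Single genes were also compared by two-sided exact permutation tests. The tools were tested on simulated data. Exon lengths came from the Gencode annotation (27238 of 27299 genes).

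The 10 genes and the 19 lists were chosen with earlier results of these data known, so no p was adjusted over a list and no list was tested. Of each other list, the text names 2 to 4 genes of highest mean and the DEG. Other genes of the lists were named after their values were seen, and some genes that the rule would name are not reported here.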

Additional observations from a re-analysis of the deposited data

Results flagged for a closer look

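In 20 groups of 6 samples (10 genes in 2 groups), 5 had a highest sample that stood apart from the others by more than Dixon's 95% critical value. This value assumes normally spread data, whereas many of these counts are 0, so it gives no chance rate here. A group with reads in only 1 sample always passes it, as Gfap and Sox9 did in control. Gpr37 in control, with only 0, could not pass. Gfap had 82.0 normalized counts in control 2 against 0 in the other 5 control samples. Aqp4 had 60.9 in laser 5, where the other laser samples had 5.17 to 24.1. Dkk3 had 106 in laser 3, where the next sample had 40.8. Sox9 had 22.4 normalized counts in laser 3, where the next sample had 1.602. Its flag in control 3 (1.13 normalized counts) is a single read. Laser 3 thus held the highest Dkk3 and Sox9 of all samples and the lowest Gfap among laser samples (1.79). It also had the highest sum of the 14 other glial genes (3738), to which Nes added the most by mean. Its sum of the monocyte and neutrophil genes (2634) was the highest as well. The part of cell makeup in these values was not tested.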

How the results depend on the processing

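Over all 27299 genes, 1068 were increased and 293 decreased DEG by limma. The increased count was 600 with a pseudocount of 10 and 2264 by adjusted p alone, and the decreased count was 572 with DESeq2 and 1247 by adjusted p alone. Leaving out 1 sample gave 829 to 1041 increased and 237 to 358 decreased DEG, with 2 to 3 of the 10 glial genes increased and 0 decreased. Of the 10 genes, 1 was increased with edgeR and 1 was decreased by adjusted p alone, and of the 14 other glial genes 3 were increased with the filter of 10 reads in 6 samples (fewer genes are then tested), with a pseudocount of 10, with edgeR and with DESeq2, and 6 (0 decreased) in every fit that left out 1 sample. The other 62 counts stayed within 1.5 times, and no fitted log2 fold change of the 10 genes changed sign, while the ratio of the Aqp4 means turned without laser 5 (control 1.14-fold higher). The replicate block gave 921 increased and 215 decreased DEG and 2 of the 10 glial genes, without Clu (adjusted p = 0.0537). For samples of the same number, the deviations from the group means correlated by -0.05 to 0.06 over 10756 genes. A shared effect on few genes would not show in this check, so it cannot tell whether such samples were handled together. Genes of fewer than 3 reads in a sample cannot be told from 0 at this depth, and the control samples were the shallower ones. The causes of these shifts were not tested.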
